A study of Oryza sativa with 4 samples.

Results

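The response of wild-type rice leaves to dehydration was described by setting 1 array, wild type at 2 h of 20% PEG (WT PEG 2 h), against 1 array, wild type before treatment (WT 0 h). These are 2 of the 4 arrays of the series, and the remaining arrays hold the *OsABA8ox3* RNAi line at the same times. The leaves came from seedlings of cultivar ZH11, at the four-leaf stage by the study's methods, grown at 28 °C by day and 24 °C by night with 14 h of light and 10 h of dark. The methods name the WT plants both as ZH11 and as ZH11 carrying the empty vector, and the labels do not settle which of them was put on the array. PEG, a polymer, makes water less available to the roots and was used in place of drought. There was no 2 h array of leaves kept without it, so PEG and the passing of 2 h cannot be told apart. With 1 array per condition there is no replicate error. Sizes of change are therefore given with no test, and the precision of every value below is limited by this number of arrays.

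When rice leaves lose water, abscisic acid (ABA) is made from carotenoids and is broken down again by ABA 8'-hydroxylases. Bound to its receptors, ABA blocks some of the protein phosphatases 2C (PP2C). This frees some of the SnRK2 kinases, called SAPK in rice, to activate bZIP transcription factors. The bZIP factors bind the promoters of genes for late embryogenesis abundant (LEA) proteins and dehydrins, which protect membranes and proteins as cells dry. Another branch of the response runs through DREB transcription factors without needing ABA, and jasmonate, ethylene and calcium signals act beside both.

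The arrays carried 57381 probe sets. The 123 control probe sets were left out and 57258 probe sets of rice were used. Values are the deposited log2 signals with signals under 6 raised to 6, and a change is the WT PEG 2 h signal minus the WT 0 h signal. A gene or probe set is said to rise or fall where it changed by over 2-fold (1 in log2). The median signal was 5.42 at 2 h and 5.32 at 0 h, and 42.9% of probe sets reached 6 at 2 h, against 42.4% at 0 h. On both arrays 30536 probe sets (53.3%) lay at or under 6, so that no change could be measured for them. The 60 bacterial and phage control probe sets with a signal of 6 or above on both arrays changed by −0.71 to 0.59, and 0 of them passed 2-fold. The 3′ minus 5′ difference of the actin controls was 4.33 at 2 h and 4.74 at 0 h, that of GAPDH was 2.33 and 2.64, that of ubiquitin was −0.15 and 0.21, and that of cyclophilin was 0.19 and 0.63, in log2. This difference, which is larger where RNA is less intact, was thus lower at 2 h for all 4 control genes. Its part in the changes below was not tested. Among 1524 genes with several probe sets, all at 6 or above, the changes of 1 gene's probe sets lay within 2-fold of each other for 84.8%, with a median range of 0.34. Of all 483 genes with several probe sets and at least 1 that rose, 14 had another that fell, and the same number of 14 was found among 597 with at least 1 that fell.

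The signals of leaf genes were high on both arrays. The light-harvesting gene CAB2R had a signal of 15.08 at 2 h and 15.37 at 0 h, and RCABP69, of the same kind, had 14.07 and 14.79. Of 9 seed storage protein genes, 6 were at the floor on both arrays, and GLUA-2 lay above it with 8.05 at 2 h and 8.12 at 0 h. Of 2 genes that mark roots, the silicon exporter gene Lsi2 was at the floor, whereas the silicon channel gene Lsi1 had 9.19 at 2 h and 10.07 at 0 h. The defining leaf genes were thus present, and 1 root marker was not absent.

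Large changes in WT leaves were mostly rises, while moderate changes ran in both directions. Over 2-fold, 3102 probe sets rose (5.42% of all) and 3517 fell (6.14%). Falls were more numerous at this threshold with the floor of 6 and the deposited scaling. They were also more numerous with floors of 5 and 7 and with a minimum of 6 on both arrays. The same held without probe sets that can match several transcripts. Arrays brought to an equal median of all probe sets gave 2778 rises and 4238 falls. Rises were more numerous with no floor (12568 and 12013), a floor of 8, an offset of 32 and counts by gene. Arrays brought to equal hybridization controls gave 3492 rises and 2844 falls. An equal median of probe sets of at least 8 gave 3562 and 2770, and quantile normalization gave 3357 and 2872. Over 4-fold, 1100 probe sets rose and 297 fell. Over 8-fold the numbers were 403 and 35, over 16-fold 158 and 4, and over 32-fold 43 and 0. Rises thus made up 38.9% of the changes over 1.5-fold, 78.7% of those over 4-fold and 97.5% of those over 16-fold. By gene, 657 rose and 115 fell over 4-fold, out of 17905.

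**Figure D1:**
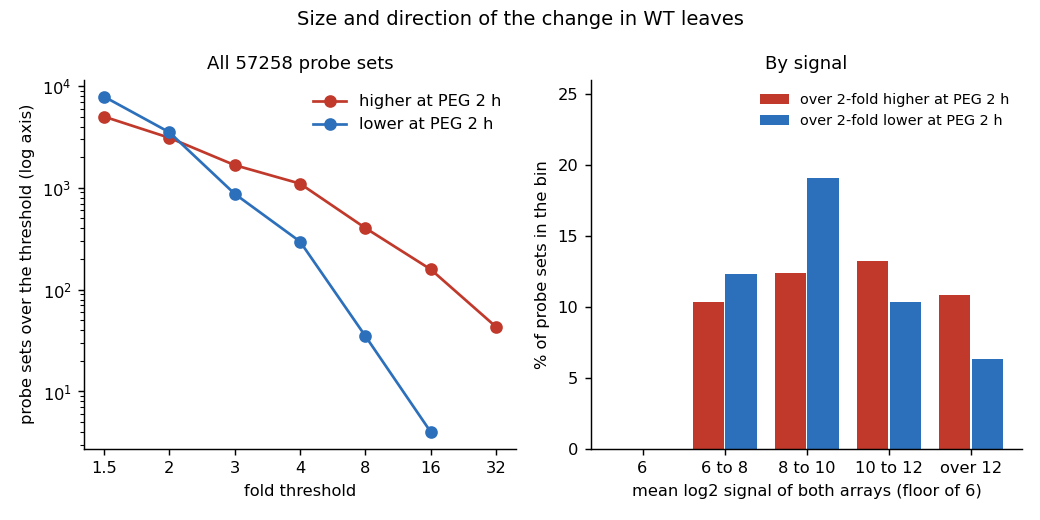
Left, the number of probe sets higher (red) or lower (blue) at PEG 2 h than at 0 h past each fold threshold, on a log axis, where 43 were over 32-fold higher and 0 lower. Right, the percent of probe sets over 2-fold higher or lower in bins of the mean signal of both arrays, with falls most frequent at 8 to 10 (19.1%).

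A floor limits how far a low signal can fall, so the directions were also counted among the 8598 probe sets with a mean signal over 10, where falls of 16-fold have room. There 1076 rose and 786 fell over 2-fold, 403 rose and 70 fell over 4-fold, and 149 rose and 9 fell over 8-fold. The excess of large rises was therefore present also where the floor did not cap the falls. The median size among all probe sets that rose was 1.65 (quartiles 1.27 and 2.37, highest 8.91), and among those that fell it was −1.30 (quartiles −1.58 and −1.13, lowest −4.65). Of the probe sets that rose, 603 (19.4%) had a 0 h signal under 6 and so had their change counted from 6. Of those that fell, 381 (10.8%) were under 6 at 2 h.

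**Figure D2:**
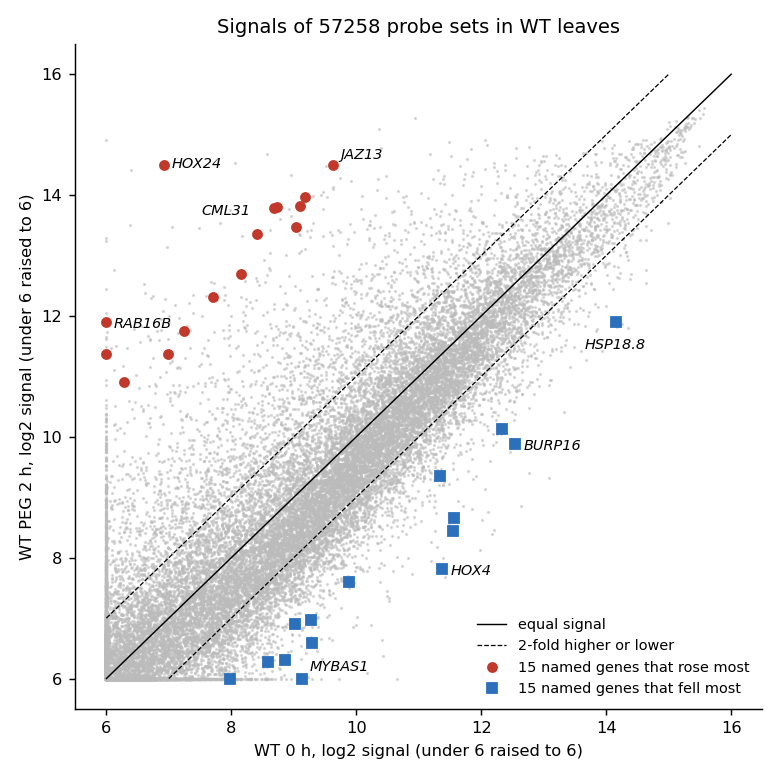
Log2 signal at WT PEG 2 h (vertical) against WT 0 h (horizontal) for 57258 probe sets (grey), with the 15 named genes that rose most (red circles) and the 15 that fell most (blue squares). The solid line marks equal signal and the dashed lines 2-fold. HOX24, at 14.49 against 6.92, lies farthest above the line among named genes.

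Of the 10 probe sets that rose most, 6 could be given a name or description. These are a homeobox factor, LEA proteins, a MYB-family factor, a DREB factor and an enzyme of ABA synthesis. The locus and description come from the study's supplementary lists of induced genes, used here for identity only. HOX24, an HD-Zip factor, had a signal of 14.49 at 2 h of PEG and 6.92 at 0 h (a change of 7.57, or 190-fold). The LEA genes Os03g20680 and Os01g50910 had 13.25 and 12.45 at 2 h, and both were under 6 at 0 h, which gives changes of 7.25 and 6.45. The probe set of Os05g37060, described as MYB-family, had 13.50 at 2 h and 6.39 at 0 h. All 4 were thus near or under the floor before PEG. The DREB factor Os06g03670 had 12.76 at 2 h and 6.12 at 0 h on 1 probe set (6.64) and 13.74 and 7.98 on its other (5.77).

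The last of the named ones, Os07g05940, is described as a 9-cis-epoxycarotenoid dioxygenase, which cleaves carotenoids in the step that limits ABA synthesis. Its probe set had 13.47 at 2 h and 7.05 at 0 h, a change of 6.43 (86.0-fold). The probe set with the largest rise of all, paired with LOC4342551, had 14.91 at 2 h and was under 6 at 0 h, a change of 8.91. That of Os07g33280, described only as an expressed protein, had 14.42 and 6.39. Those of LOC4343597 and LOC4331910 changed by 7.29 and 6.47. These 4 had no function that the tables used here give. Named after their values had been seen, the beta-amylase gene Os10g32810, for an enzyme that releases maltose from starch, had 11.38 at 2 h and 6.01 at 0 h, and the C2H2 zinc finger gene Os03g60560 had 11.78 and 6.44.

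The 5 probe sets that fell most had no gene name. That of LOC4343604 was under 6 at 2 h and had 10.65 at 0 h, a change of −4.65. That of LOC4349078 had 6.10 at 2 h and 10.18 at 0 h (−4.08), and further probe sets of this gene changed by −3.78 and −3.75. Both of the next, which are paired with no gene, changed by −4.07 and −4.05, and that of LOC4335579 by −3.84. Only the first of the 5 reached the floor at 2 h, so the size of the other falls was measured on both arrays.

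Among genes with a name, 317 of 2458 rose (12.9%) and 161 fell (6.55%), against 1797 of all 17905 genes that rose (10.0%) and 1696 that fell (9.47%). The gene lists below are made of named genes, so their counts are to be read beside 12.9% and 6.55%. The 15 named genes that rose most changed by 4.39 to 7.57. They spanned dehydrins (RAB16B, RAB21), PP2C (PP2C68, PP2C30, ABIL1), calmodulin-like proteins (CML31, CML15) and transcription factors (HOX24, HSFB2A, WRKY24). Also among them were the repressor gene JAZ13, the reductase gene OPR1, a vacuolar water channel (TIP1;2), a sugar transporter (SWEET16) and a trehalose phosphate phosphatase (TPP9). SWEET16 had 11.37 at 2 h and was under 6 at 0 h, and TPP9 had 12.31 and 7.71. The 15 that fell most changed by −3.55 to −1.98. These were HOX4 and HOX20, MYBAS1, the ubiquitin ligase genes ELF1 and PUB57, SK1, the cytokinin-activating LOGL10, BURP16, the D-type cyclin CYCD5-1, the expansins EXPB4 and EXPA2, the small heat shock protein HSP18.8, the sugar transporter SWEET1B, the calcium exchanger CAX1b and SNAT2, of melatonin synthesis.

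**Figure D3:**
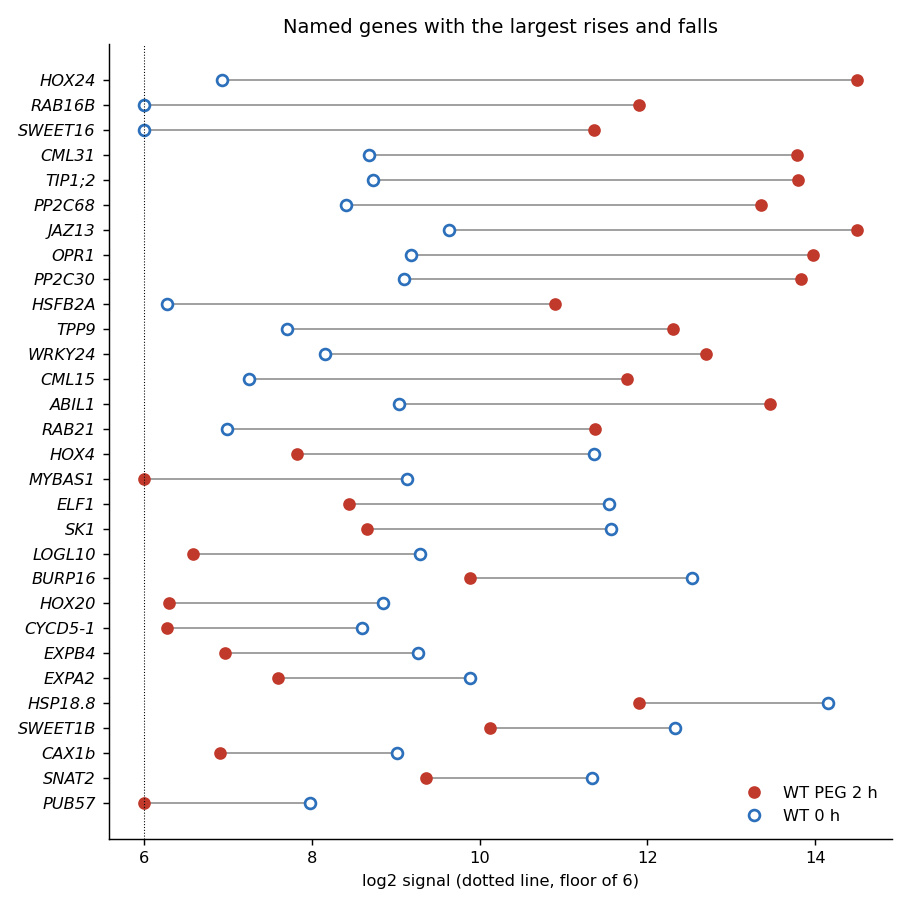
Log2 signals at WT PEG 2 h (filled red) and WT 0 h (open blue) of the 15 named genes that rose most (top) and the 15 that fell most (bottom), with the floor of 6 as a dotted line. Of the risers, RAB16B and SWEET16 lie on the floor at 0 h, and of the fallers MYBAS1 and PUB57 lie on it at 2 h.

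In ABA synthesis, genes of single steps rose. Of 8 genes for ABA synthesis and breakdown, 3 rose (37.5%) and 0 fell, beside 12.9% and 6.55% of all named genes. Os07g05940, given above, is paired with no gene in the annotation and is outside this count. Phytoene synthase makes the first carotenoid of the route. Its gene PSY3 had 12.66 at 2 h and 8.92 at 0 h (3.74), whereas PSY2 had 13.61 and 13.39, and PSY1 had 10.31 and 11.17, a change of −0.86. The phytoene synthase genes thus differed in size and sign of change, and PSY3 alone of the 3 passed 2-fold. MHZ4, which acts in the making of neoxanthin, had 10.07 at 2 h and 7.04 at 0 h (3.03). ABA1, the zeaxanthin epoxidase gene, changed by 0.83 and the phytoene desaturase gene PDS by −0.09. Of the hydroxylases that break ABA down, ABA8OX2 had 8.31 at 2 h and 7.20 at 0 h (1.11) and ABA8OX1 had 11.05 and 11.83 (−0.79). The annotation used pairs no probe set with *OsABA8ox3*, which was therefore not analysed here.

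The PP2C family includes negative regulators of ABA signalling. A group of its genes rose strongly and most of the family stayed within 2-fold. The list took PP2C genes by name, so members that act outside ABA signalling are not set apart. Of 55 PP2C genes, 15 rose (27.3%) and 3 fell (5.45%), beside 12.9% and 6.55% of all named genes. The median change was 0.40, against 0 for all genes. PP2C68 had 13.35 at 2 h and 8.41 at 0 h (4.94), PP2C30 had 13.83 and 9.09 (4.73), and ABIL1 had 13.46 and 9.03 (4.43). PP2C08, PP2C59 and PP2C09 changed by 4.24, 4.21 and 4.05. A gap followed these 6, as the next, PP2C02, changed by 2.74. The 3 that fell were PP2C12 with 10.33 at 2 h and 11.89 at 0 h (−1.56), PP2C71 (−1.42) and PP2C67 (−1.05). Only 1 gene named as an ABA receptor was found, with a change of −0.32.

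The genes of SnRK2 kinases, some of which PP2C of ABA signalling can hold inactive, split evenly. The list took SAPK genes by name, so members that act outside ABA signalling are not set apart. Of 10 SAPK genes, 5 rose (50%) and 0 fell, beside 12.9% and 6.55% of all named genes, with a median of 0.67. SAPK9 had 10.02 at 2 h and 6.63 at 0 h (3.38), SAPK7 had 9.35 and 6.37 (2.98), and SAPK6 had 13.27 and 11.33 (1.94). SAPK2 and SAPK4 changed by 2.16 and 1.19. The other 5 lay between −0.44 (SAPK3) and 0.15 (SAPK1), so that no member filled the space between 0.15 and 1.19. Of the ABA-responsive bZIP factors, both listed genes rose. BZIP23 had 14.32 at 2 h and 10.47 at 0 h (3.85), and TRAB1 had 12.12 and 10.54 (1.58).

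**Figure D4:**
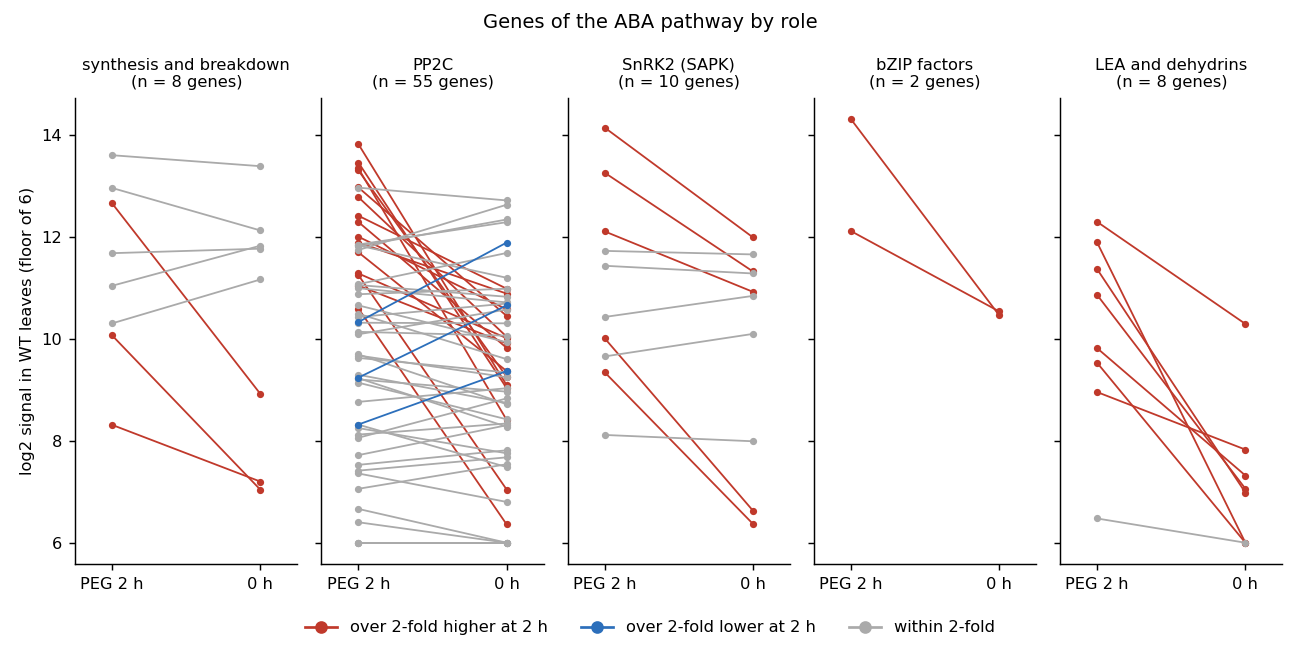
Log2 signals in WT leaves of each listed gene of the ABA pathway at PEG 2 h (left point) and 0 h (right point), by role. The PP2C and SAPK panels hold genes taken by family name. Genes over 2-fold higher at 2 h are red, those over 2-fold lower are blue and others are grey. A majority of LEA and dehydrin genes (7 of 8), 5 of 10 SAPK genes and 15 of 55 PP2C genes are red.

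At the end of the pathway, the listed LEA and dehydrin genes rose almost as a whole, and several of them could not be measured before PEG. The list went by symbol and does not stand for all LEA genes. Of 8 genes, 7 rose (87.5%) and 0 fell, beside 12.9% and 6.55% of all named genes. The median was 3.02, or 1.91 with a floor of 8. The dehydrin gene RAB16B had 11.90 at 2 h and was under 6 at 0 h (5.90). Next to it in the family, RAB21 had 11.37 and 6.98 (4.39), rab25 had 10.87 and 7.06 (3.80), and RAB16C had 9.82 and 7.32 (2.50). RAB21 and the RAB16 genes are close copies of each other, and of the 2 probe sets of RAB21 the 1 that can match several transcripts changed by 4.004, and the other by 4.77. Emp1, a LEA gene first known from seeds, had 9.53 at 2 h and was under 6 at 0 h. LEA19 changed by 2.00, with 12.30 at 2 h and 10.30 at 0 h, and Dhn1 by 1.13. The value of Dhn1 is a mean of 3 probe sets, with signals under 6 among them. It was 8.96 at 2 h and 7.83 at 0 h with the floor, and 7.05 and 5.30 without it. RAB16D had 6.48 at 2 h and was under 6 at 0 h, so it was the member within 2-fold. The changes of RAB16B, Emp1 and RAB16D are counted from the floor and move with it, as in RAB16B with 3.90 for a floor of 8 and 7.37 without a floor.

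Heat shock proteins, which keep other proteins folded, did not rise as a group, whereas a part of their transcription factors did. Of 25 heat shock protein genes, 4 rose (16%) and 1 fell (4%), near the shares of all named genes (12.9% and 6.55%). The median was 0, and 5 were at the floor on both arrays. HSP24.1 had 10.24 at 2 h and 6.34 at 0 h (3.91), HSP17.4 had 10.97 and 7.65 (3.32), and HSP81-1, of the HSP90 family, changed by 2.13. HSP18.8 ran the other way, with 11.90 at 2 h and 14.16 at 0 h (−2.26). Small heat shock protein genes were thus found among both the rises and the falls. Of 20 heat stress factor genes, 7 rose (35%) and 0 fell, with a median of 0.42. Class B factors held 3 of these. HSFB2A had 10.90 at 2 h and 6.28 at 0 h (4.62), HSFB2C changed by 3.07 and HSFB1 by 2.54. HSFA3, a class A factor, had 11.86 and 8.62 (3.24).

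A set of 9 genes had been picked from these arrays for PCR, so their rise here is not independent evidence. On the WT arrays 7 of the 9 rose and 2 stayed within 2-fold. Besides those given above, the group 1 LEA gene Os04g49980 had 9.08 at 2 h and was under 6 at 0 h (3.08), and Os05g10670, a CCCH zinc finger gene, had 8.67 and 7.38 (1.30). The DnaK family gene Os03g16920 had 6.58 at 2 h and was under 6 at 0 h (0.58), and HSP18.6 had 6.22 and 6.14 (0.08). Both of these lay near the floor on each array.

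**Figure D5:**
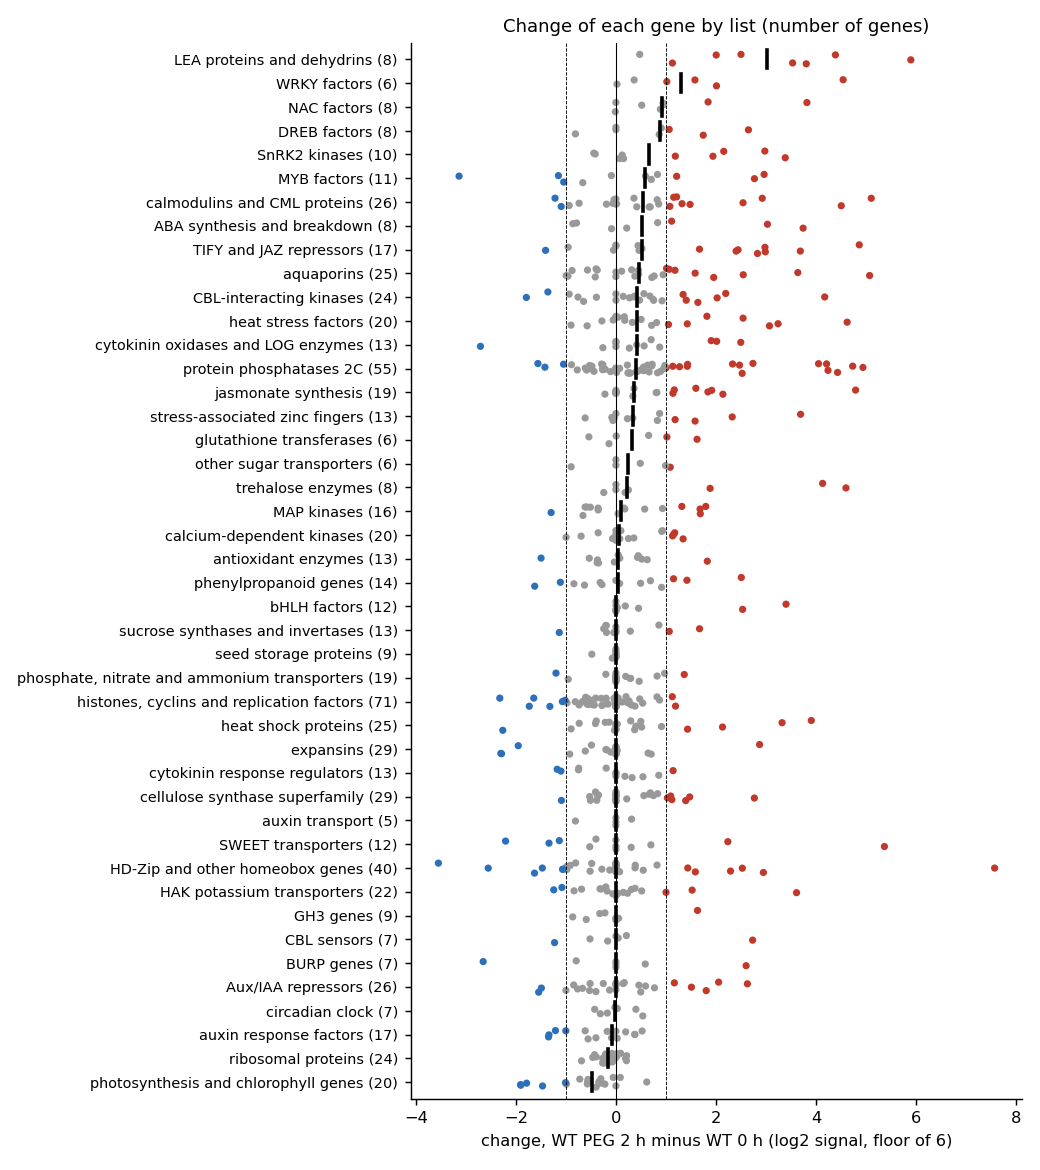
Change of each gene (points, WT PEG 2 h minus WT 0 h, log2 signal with a floor of 6) for the 44 lists of 5 or more genes, ordered by the list median (black bar), with genes over 2-fold higher in red and lower in blue. Dashed lines mark 2-fold, and the medians run between −0.48 for photosynthesis and chlorophyll genes and 3.02 for LEA proteins and dehydrins.

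Lists of transcription factors differed in how many members rose and whether any fell. Each list holds only genes that carry a family symbol, so it does not describe the whole family. The shares that rose were 66.7% for WRKY, 37.5% for DREB and 25% for NAC genes, beside 12.9% of all named genes. None of these 3 lists held a fall, beside 6.55%. WRKY factors, which act in defence and stress, rose in 4 of 6 listed genes, and the median was 1.30. WRKY24 had 12.70 at 2 h and 8.16 at 0 h (4.54), WRKY71 had 10.85 and 8.84 (2.01), and WRKY76 changed by 1.58. Of 8 DREB genes 3 rose, with DREB1G at 10.22 at 2 h and 7.57 at 0 h (2.65), DREB2A at 8.95 and 7.20 (1.75) and DREB2B at 10.68 and 9.62 (1.06). CBF3, of the DREB1 type that is known for the cold response, changed by −0.81, and CBF1 was at the floor on both arrays. Os06g03670, given above, is not paired with a gene in the annotation and is outside this count. Of 8 NAC genes 2 rose, NAC071 with 11.85 at 2 h and 8.03 at 0 h (3.82) and NAC067 with 12.06 and 10.21 (1.84). With other scalings of the arrays the DREB count lay between 2 and 4, and the NAC count between 2 and 5.

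Homeobox genes held both the largest rise and the largest fall among named genes. Of 40 genes, 6 rose (15%) and 6 fell (15%), beside 12.9% and 6.55% of all named genes. Another 15 were at the floor on both arrays, and the median was 0. HOX24 and Hox22 are HD-Zip genes known to respond to water deficit, and Hox22 had 13.53 at 2 h and 10.58 at 0 h (2.95). HOX4, another HD-Zip gene, had 7.82 and 11.37 (−3.55), and HOX20 had 6.30 and 8.85 (−2.55). The direction therefore varied within the HD-Zip genes. Of 11 MYB genes, 3 rose (27.3%) and 3 fell (27.3%). JAMYB, a jasmonate-inducible MYB gene, had 12.72 at 2 h and 9.75 at 0 h (2.96), and MYBAS1 was under 6 at 2 h and had 9.14 at 0 h. The gibberellin-regulated GAMYB changed by −1.04. BHLH148, known from jasmonate signalling in drought, had 13.27 at 2 h and 9.87 at 0 h (3.40). It was 1 of 2 that rose among 12 bHLH genes (16.7%), or 1 of 5 with a floor of 5. Of 13 genes for stress-associated zinc finger proteins 4 rose (30.8%) and 0 fell, led by SAP17 with 10.86 at 2 h and 7.16 at 0 h (3.69).

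A part of the genes listed for jasmonate synthesis rose, and so did a part of those for repressors that jasmonate signalling induces. JAZ proteins, a part of the TIFY family, hold back jasmonate-responsive transcription. Of 17 TIFY and JAZ genes, 8 rose (47.1%) and 1 fell (5.88%), beside 12.9% and 6.55% of all named genes, and the median was 0.52. All 8 that rose were JAZ genes. JAZ13 had 14.50 at 2 h and 9.63 at 0 h (4.86), JAZ9 had 11.66 and 7.98 (3.69), and JAZ10 had 13.38 and 10.39 (2.99). The others were JAZ5, JAZ12, JAZ8, JAZ11 and JAZ6, with changes between 1.67 and 2.98. TIFY2B fell, with 8.40 at 2 h and 9.81 at 0 h. Of 19 genes for jasmonate synthesis, 7 rose (36.8%) and 0 fell, and 7 were at the floor on both arrays. OPR1, an oxophytodienoate reductase, had 13.97 at 2 h and 9.18 at 0 h (4.79). The lipoxygenase gene LOX5 changed by 2.14 and the allene oxide cyclase gene aoc, with 13.26 and 11.42, by 1.84. Of 2 allene oxide synthase genes listed as AOS, 1 had 10.87 and 8.95 (1.91) and the other changed by 0.80, and both AOS3 and AOS4 were at the floor. Reading these genes in the order of the pathway, the lipoxygenase, synthase and cyclase steps each held a gene that rose, and so did the oxophytodienoate reductases. The reductase genes were divided. Besides OPR1, OPR4 and OPR5 rose, both counted from the floor, and with a floor of 7 the list held 5 rises. OPR13 stayed within 2-fold, and OPR7, OPR10 and OPR12 were at the floor on both arrays. Which of these reductases acts in jasmonate synthesis was not tested.

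Genes of the other hormones changed singly. For ethylene, the synthase gene ACS2 had 11.20 at 2 h and 7.67 at 0 h (3.53) and the oxidase gene ACO1 had 11.51 and 8.73 (2.78), which are 2 of 3 genes listed. For gibberellin, GA20OX3, of the last steps of synthesis, had 11.91 and 8.88 (3.03), and KAO, of an earlier step, had 10.41 and 12.19 (−1.78). Genes of 1 pathway thus moved in opposite directions. Among 13 genes of cytokinin turnover, the cytokinin oxidases CKX4 and CKX5, which degrade the hormone, changed by 2.01 and 1.91. The activating enzymes differed, as LOGL7 had 11.52 at 2 h and 9.02 at 0 h (2.50) and LOGL10 had 6.58 and 9.29 (−2.71).

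In auxin signalling the repressor genes changed in both directions, and the response factors that passed 2-fold all fell. Of 26 Aux/IAA repressor genes, 5 rose (19.2%) and 2 fell (7.69%), beside 12.9% and 6.55% of all named genes, and 3 rose with a floor of 8. Examples are IAA19, at 11.19 at 2 h and 8.56 at 0 h (2.63), and IAA10, at 10.26 and 11.80 (−1.54). Of 17 auxin response factors, 0 rose and 4 fell (23.5%), against 12.9% and 6.55% of all named genes. The falls were led by ARF9 with 11.15 at 2 h and 12.50 at 0 h (−1.35) and ARF22 with 8.83 and 10.17 (−1.34). All 4 falls were small, and the median of the family was −0.09, which became 0 with equal hybridization controls or an equal median of probe sets of at least 8.

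Calcium signals are read by calmodulin-like proteins, by CBL proteins with their CIPK kinases and by calcium-dependent kinases. Of 26 calmodulin and CML genes, 9 rose (34.6%) and 2 fell (7.69%), beside 12.9% and 6.55% of all named genes, with a median of 0.54. CML31 had 13.78 at 2 h and 8.68 at 0 h (5.11), CML15 had 11.75 and 7.25 (4.50), and CML16 had 14.76 and 11.83 (2.92). CML28 fell to under 6 at 2 h, against 7.22 at 0 h, and with a floor of 7 there was no fall in the list. Of 24 CIPK genes, 6 rose (25%) and 2 fell (8.33%). CIPK6 had 10.17 at 2 h and was at the floor at 0 h (4.17), CIPK16 had 8.69 and 6.50 (2.20), and CIPK10 had 7.44 and 9.24 (−1.79). The CBL sensors also ran both ways, with CBL10 at 11.67 at 2 h and 8.94 at 0 h (2.73) and CBL9 at 7.61 and 8.84 (−1.23). The calcium-dependent kinases moved little in comparison. Of 20 genes, 4 rose (20%) and 0 fell, beside 12.9% and 6.55% of all named genes, and the highest was CPK3 with a change of 1.34. Of 16 MAP kinase genes, 4 rose (25%) and 1 fell (6.25%), led by MPK7 with 12.96 and 11.16 (1.80).

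Water channel genes rose in part. Of 25 aquaporin genes, 8 rose (32%) and 0 fell, beside 12.9% and 6.55% of all named genes, with a median of 0.45. With a floor of 7, 5 rose and the median was 0.12, and with a floor of 8, 5 rose and the median was 0, as TIP3;1, NIP4;1 and TIP3;2 lay between 7.07 and 7.18 at 2 h. Without a floor 1 fell, and with the floor of 6 there was 1 that fell after quantile normalization and 2 with the arrays brought to an equal median. Channels of the vacuolar membrane (TIP) and of the plasma membrane (PIP) were both among those that rose. TIP1;2 had 13.80 at 2 h and 8.73 at 0 h (5.07), PIP2;4 had 9.64 and was at the floor at 0 h (3.64), and PIP1;3 had 12.60 and 10.05 (2.55). TIP1;1, with 14.22 and 12.63, changed by 1.58. Of 22 HAK potassium transporter genes, 3 rose (13.6%) and 2 fell (9.09%), shares near those of all named genes (12.9% and 6.55%). HAK27 had 13.52 at 2 h and 9.91 at 0 h (3.61).

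Among sugar transporter and trehalose genes, single members changed by large amounts. Of 12 SWEET genes, which encode sugar channels, 2 rose (16.7%) and 3 fell (25%), beside 12.9% and 6.55% of all named genes. The rises were SWEET16 and SWEET15 (2.24, counted from the floor). The falls were SWEET1B with 10.12 at 2 h and 12.33 at 0 h (−2.21), SWEET4 (−1.34) and SWEET2B (−1.13). The sucrose transporter gene SUT1 changed by 1.09. The 8 trehalose genes listed all encode trehalose phosphate phosphatases, which make trehalose from its phosphate. Of these 8 genes, 3 rose (37.5%) and 0 fell. TPP2 had 11.47 at 2 h and 7.33 at 0 h (4.13) and TPP1 had 11.80 and 9.92 (1.88). In proline synthesis, P5CS1 changed by 0.62 and P5CS2 by −0.04, so neither passed 2-fold. Of 13 antioxidant enzyme genes, 1 rose (7.69%) and 1 fell (7.69%), beside 12.9% and 6.55% of all named genes. The ascorbate peroxidase gene APX2 rose, with 11.05 at 2 h and 9.23 at 0 h (1.83). The catalase gene CAT-A fell, with 12.24 and 13.73 (−1.50). In the phenylpropanoid route, which leads to lignin, 3 of 14 genes rose (21.4%) and 2 fell (14.3%), or 3 and 0 with a floor of 7. Among them, 4CL5 had 11.89 at 2 h and 9.38 at 0 h (2.51).

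Growth genes changed in single members, in both directions. Expansins loosen cell walls as cells enlarge. Of 29 genes, 16 were at the floor on both arrays, 1 rose (3.45%) and 3 fell (10.3%), beside 12.9% and 6.55% of all named genes. EXPB4 had 6.97 at 2 h and 9.27 at 0 h (−2.30), EXPA2 had 7.60 and 9.89 (−2.29), and EXPB3 had 9.71 and 11.67 (−1.95). The expansin-like gene EXLA2, in contrast, had 11.62 and 8.75 (2.87). Of 71 genes for histones, cyclins and replication factors, 2 rose (2.82%) and 6 fell (8.45%), and 21 were at the floor on both arrays. The share that rose was below that of all named genes (12.9%), and the share that fell was near theirs (6.55%). With a floor of 5 there were 5 rises, and with a floor of 8 there were 3 falls. CYCD5-1 had 6.27 at 2 h and 8.59 at 0 h (−2.32), CYCA1-4 had 7.41 and 9.14 (−1.73), and CYCD3-1 had 6.92 and 8.57 (−1.64). The D-type cyclins act at the entry into the cell cycle, and CYCD6-1 of the same type had 9.03 and 7.84 (1.19). Of 29 genes of the cellulose synthase superfamily, 6 rose (20.7%) and 1 fell (3.45%), beside 12.9% and 6.55% of all named genes. CSLC9 had 8.77 at 2 h and was at the floor at 0 h (2.77), and CESA6 and CESA5 changed by 1.47 and 1.40. The number of rises was 3 with a floor of 7 and 1 with a floor of 8. The 24 ribosomal protein genes, all above the floor, stayed between −0.69 and 0.21, and none passed 2-fold.

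Genes of light harvesting and Rubisco stayed within 2-fold, and genes of chlorophyll synthesis were divided between falls and changes within 2-fold. Of 20 genes, 0 rose and 5 fell (25%), beside 12.9% and 6.55% of all named genes. The median was −0.48, or between −0.55 and −0.36 with the other scalings. The genes for light harvesting, Rubisco and its activase changed by −0.72 to 0 (RBCS1, at the floor on both arrays), as in rca with 14.96 at 2 h and 15.30 at 0 h (−0.34) and RBCS with 11.79 and 12.09 (−0.30). Of the falls, PORB, for protochlorophyllide reductase, had 11.04 at 2 h and 12.94 at 0 h (−1.90), and CHLI, of the magnesium chelatase, had 6.30 and 8.09 (−1.79). The other chelatase genes CHLD and CHLH changed by −0.57 and −0.56, and CHLG, of the last step, by −0.33. The value of CHLH is a mean of 2 probe sets, 9.59 at 2 h and 10.15 at 0 h with the floor and 7.34 and 8.60 without it. Signals under 6 thus entered it on both arrays, and its place within 2-fold rests on this mean. NDH-M, a subunit of the chloroplast NDH complex, had 10.90 at 2 h and 12.81 at 0 h (−1.91). GLK1, a factor that drives genes of chloroplast development, had 11.38 and 12.85 (−1.47), and CHLP, which makes the chlorophyll side chain, had 13.43 and 14.43 (−1.01). CHLP and GLK2 (−0.99) lay on either side of the threshold, and the number that fell was 4 to 6 with the other scalings. PORA, the close relative of PORB, changed by 0.62.

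As the arrays differ by 2 h of day as well as by PEG, the clock genes were read beside these results. All 7 stayed within 2-fold, with changes between −0.42 (PRR1) and 0.54 (GI). CCA1, which peaks around dawn in plants, had 10.12 at 2 h and 10.43 at 0 h, and PRR95 had 13.97 and 13.95. The value of CCA1 is a mean of 2 probe sets, with signals under 6 on both arrays, and was 8.07 at 2 h and 10.20 at 0 h without the floor. The part of the time of day in the changes above was not tested.

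Across all 53 lists, which hold 786 genes, 156 genes rose (19.8%) and 57 fell (7.25%), beside 12.9% and 6.55% of all named genes. More members rose than fell in 31 lists and more fell than rose in 7. The lists were chosen with earlier results of these data known. These counts therefore do not test whether such genes rise more than others. The largest shares of risers in lists of 5 or more genes were those of LEA proteins and dehydrins (87.5%), WRKY factors (66.7%), SnRK2 kinases (50%) and TIFY and JAZ repressors (47.1%). Counts of fallers passed those of risers in lists of 5 or more genes for photosynthesis and chlorophyll genes, auxin response factors, expansins, SWEET transporters, cytokinin response regulators and the genes of cell division.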

How the data were processed

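Leaf RNA of 4 samples was put on Affymetrix Rice Genome Arrays, and 2 arrays were compared here. Signals were extracted and scaled by the authors in GCOS (the labels name MAS5, without a version), and the deposited values are log2 signals. The scaling target is not given in the sources used here. MAS5 subtracts mismatch signal, which makes low values noisy, so signals under 6 were raised to 6. Differences were taken with Python 3.11.15, pandas 2.3.3 and numpy 2.4.6 after a check on simulated data. Probe sets were paired with genes by the platform annotation (22531 listed, 22436 with 1 gene, 95 with several, 34727 with none), and names were updated through a rice gene table of assembly ASM3414082v1. For genes with several probe sets the mean was used. Loci and descriptions of unpaired probe sets came from the study's supplementary tables, of which only parts were used.

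The members, lists and rules were chosen with earlier results of these data known. The genes given by name are those with the largest changes among named genes (15 upward and 15 downward) and among all probe sets (10 upward and 5 downward), the 9 genes measured again by PCR, and up to 4 members of each list with the largest change. Further genes were chosen after their values were seen. The lists went by gene symbol and miss genes under other names. Alternatives were floors of 5, 7 and 8, no floor, a minimum of 6 on both arrays, an offset of 32, 4 scalings, fold thresholds of 1.5, 3 and 4, no probe sets that can match several transcripts, and counts by gene or by the highest probe set. A planned search for promoter motifs was not run, as no sequences were used.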

Additional observations from a re-analysis of the deposited data

Results flagged for a closer look

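The control probe sets of rice genes, which were left out of all counts, included 7 that were over 2-fold higher at 2 h of PEG. The 5.8S ribosomal RNA control had 9.601 at 2 h and 7.002 at 0 h (2.60), and the 25S ribosomal RNA control had 13.17 and 11.80 (1.37). The control for 28S ribosomal RNA changed by 0.58, and those for 18S ribosomal RNA by −0.54 and −0.46. The actin controls named actin-3_s, actin-M_s, Actin_3, Actin_5_f and Actin_M_s changed by 1.13, 1.04, 1.01, 1.42 and 1.002, and the actin-3 control without a suffix and actin-5_s by 0.56 and 0.68. The controls for GAPDH, cyclophilin and ubiquitin stayed between −0.42 and 0.52. With 1 array per condition these differences have no replicate check, and their part in the changes of other genes was not tested.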

How the results depend on the processing

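No paired analysis was possible because each condition has 1 array, and for the same reason no replicate could be left out. The numbers of probe sets that rose and fell were 3102 and 3517 (1100 and 297 over 4-fold). With a floor of 8 they were 2009 and 1985 (698 and 134), with no floor 12568 and 12013 (6243 and 4681, with 57.1% of the changes over 4-fold upward in place of 78.7%), and by gene 1797 and 1696 (657 and 115). Past 1.5-fold they were 5012 and 7885, past 3-fold 1672 and 874 (65.7% upward in place of 46.9%) and past 4-fold 78.7% were upward. Rises outnumbered falls over 4-fold in every alternative run. Over 2-fold the order turned with a floor of 8, no floor, the offset (4144 and 3828), 3 of the 4 scalings and counts by gene, and an equal median of all probe sets gave 2778 and 4238. That scaling shifted all changes by −0.09, the hybridization controls shifted them by 0.10, and the median of probe sets of at least 8 by 0.12. Among lists of 5 or more genes, 28 had more rises than falls and 6 more falls, and the number with more falls was 10 past 1.5-fold and 3 past 3-fold. Of the 45 genes and probe sets ranked by change, 42 stayed over 2-fold in every alternative run, and CYCD5-1 (−0.59), HOX20 (−0.85) and PUB57 (0) did not with a floor of 8, nor PUB57 with a floor of 7. Over all alternatives, 175 of 1232 list counts moved by more than 1.5 times, and 54 of 512 changes of ranked entries and 15 of 528 list medians moved by over 1.5-fold. Among the medians, trehalose enzymes went to 1.61 with no floor and 3.01 with the minimum on both arrays, in place of 0.22. None of the ranked changes turned its direction under these alternatives.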
